A study of Mus musculus with 4 samples.

Results

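Among cells sorted from the adult mouse mammary gland, a small set of barcodes carried the keratins of the hair follicle. These hair follicle keratinocyte barcodes were chosen by measured values: a barcode was a member when its unique molecular identifiers (UMIs, each standing for 1 captured transcript) of Krt71, Krt25, Krt27 and Krt28 summed to at least 10. The rule found 234 of the 36884 barcodes in the series, and 231 of them lay in a single library, that labelled Zeb1 MSKO at 8 weeks. They made up 2.38% of its 9693 barcodes (exact 95% binomial interval 2.09 to 2.71%). Apart from 3 members in the control library at 8 weeks, the remainder of the series held none. All values below refer to the 231 members of the library labelled Zeb1 MSKO at 8 weeks and compare them with the other 9462 barcodes of that library, unless another group is named.

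The study profiled control and Zeb1 MSKO mice of strain C57BL/B6 at 8 and at 9 weeks of age, with 1 library for each genotype and age, by droplet single-cell RNA sequencing of transcript 3′ ends. The labels do not expand MSKO, name no promoter or Cre that would limit the deletion, and do not say how many animals were pooled or which markers the sort used. Zeb1, the gene named in the genotype, encodes a zinc-finger factor that represses E-cadherin. Its UMIs numbered 397 (control) and 557 (Zeb1 MSKO) at 8 weeks, and 44 and 86 at 9 weeks, or 3.84, 6.89, 0.501 and 0.704 CPM (UMIs scaled to a total of 1000000). It is not stated whether the counted 3′ end was deleted, which leaves the genotypes unchecked, and libraries are named here as labelled. Members held 4 Zeb1 UMIs, 1 in each of 4 barcodes. The 4 libraries held 7627 to 9790 barcodes and 80853204 to 122122443 UMIs, and the library with the members had the lowest median depth, 6376 UMIs per barcode against 9403 to 10529.5. With 1 library per group, cells are no replicates. No test between groups was made, and every interval covers counting error only.

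Hair follicles are built from concentric layers of keratinocytes that arise from dividing matrix cells in the bulb. The inner root sheath, which surrounds and moulds the growing hair, makes its filaments from the type II keratins Krt71, Krt72, Krt73 and Krt74 and the type I keratins Krt25, Krt26, Krt27 and Krt28, each filament pairing a type I with a type II protein. Its cells also store trichohyalin (Tchh), which is citrullinated by Padi3 and cross-linked by Tgm3 as they harden. The companion layer outside it is known for Krt75, the hair cortex for Krt35 and Krt31, and the outer root sheath for Krt5, Krt14 and Krt17.

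Members were deep and rich barcodes. They held a median of 16773 UMIs (4131 to 45481) and 3633 detected genes, whereas the other barcodes held 6281 UMIs (2566 to 44107) and 2046 genes. Mitochondrial genes took a median of 2.46% of UMIs in members and 2.69% in the others. A minimum number of UMIs is reached more easily in a deep barcode. When every barcode was thinned at random to 2000 UMIs, 67 barcodes still reached 10 UMIs of the 4 keratins, all of them members. The summed count of the 4 keratins ranged from 10 to 2321 UMIs with a median of 28, and 44 members held at least 100 of these UMIs and 7 at least 500. Just inside the limit, at 10 or 11 UMIs, there were 16 barcodes, and just outside it, at 8 or 9 UMIs, there were 22. Msx2, a homeobox factor of the hair matrix, stood at 417 CPM just inside and 518 CPM just outside, and Dlx3, another hair homeobox factor, at 159 and 125 CPM. Other genes differed more: Ube2c stood at 583 CPM inside and 281 CPM outside, Top2a at 250 and 140 CPM, Krt35 at 500.0 and 296 CPM, and S100a3 at 26.5 and 56.1 CPM. The limit does not fall in a gap of the summed counts.

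**Figure D1:**
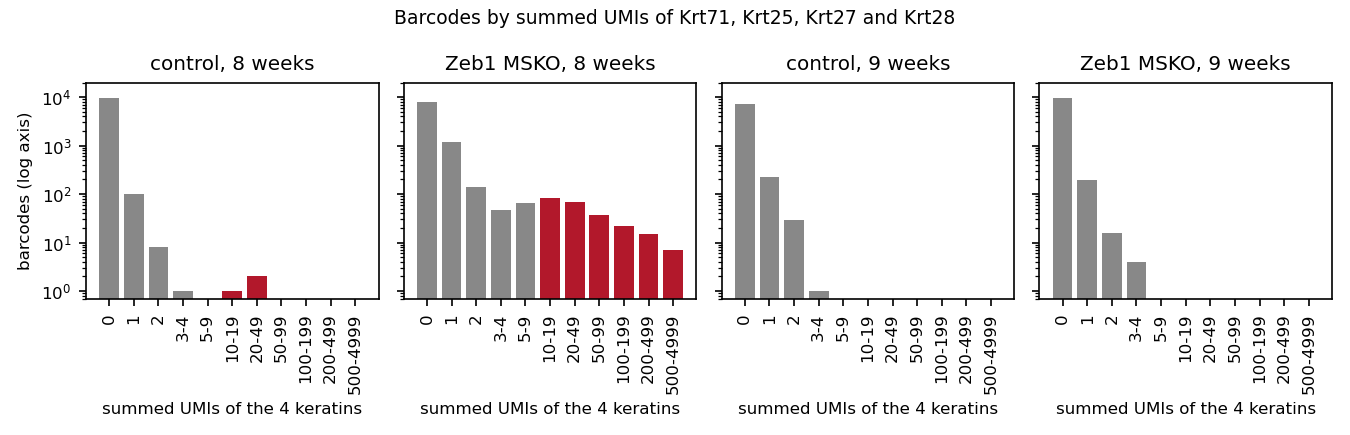
Number of barcodes (log axis) by the summed UMIs of Krt71, Krt25, Krt27 and Krt28 in each of the 4 libraries, with members in red. In the Zeb1 MSKO library at 8 weeks the counts run on from 9 to 2321 UMIs, while outside it no barcode below the limit passed 3 UMIs.

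Outside the members, the 4 keratins were found at a low level in all libraries, and most so where the members were. The non-member barcodes of the library with the members held 2065 of these UMIs, 26.9 CPM, and 15.2% of them had at least 1. The 8-week control had 1.17 CPM and 1.13% of barcodes, the 9-week control 3.22 CPM and 3.30%, and the 9-week Zeb1 MSKO library 1.97 CPM and 2.21%. After thinning to 2000 UMIs the shares were 4.44%, 0.307%, 0.839% and 0.440% in the same order. The library at 8 weeks labelled Zeb1 MSKO thus stood above the others although it was the shallowest. Within it the UMIs were spread over many kinds of barcodes. Endothelial-like barcodes, which should lack hair keratins, held 18.1 CPM with a UMI in 8.90% of barcodes at a median of 4642 UMIs. Luminal progenitor-like barcodes held 16.1 CPM and 12.4% at 7560 UMIs. The level was lower, 6.02 CPM, in 36 barcodes like the outer root sheath and bulge, of which 2 had a UMI at a median of 9580.5 UMIs. The source of these UMIs was not tested, and shares of this size are not read as expression. In the 9330 barcodes outside the cluster described next, 52.8% of these UMIs were Krt71, 15.1% Krt25, 13.9% Krt27 and 18.2% Krt28, and in members the shares were 45.5%, 23.6%, 10.1% and 20.8%. Krt71 led elsewhere too, with 76.9% of these UMIs in non-members of the 8-week control. It made up 82.0% in the 9-week control and 75% in the 9-week Zeb1 MSKO library, neither of which held members.

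The 3 members of the control library at 8 weeks held 11, 40 and 24 UMIs of the 4 keratins at 17723, 10706 and 23536 UMIs in all. The second held 25 Krt71 UMIs and the other 2 held none. Their 20 genes of G2 and M phase had 50, 7 and 102 UMIs, so barcodes with many mitotic transcripts occurred here too. Between each pair of libraries, 95 to 151 barcode sequences recurred. Of the members' sequences 12 recurred in another library, where none was a member and none held a UMI of the 4 keratins.

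The library was grouped into 16 clusters on all variable genes, the 4 keratins included, and 229 of the 231 members fell into a single cluster of 361 barcodes. Its leading genes were Krt25, Krt71, Krt28, Krt35, Krt27 and Krt73. The other 2 members lay in a luminal progenitor-like cluster. The remaining 132 barcodes of the main cluster, with a median of 12219 UMIs, stayed under the limit and carried the keratins of other hair layers. Krt35 reached 1649 CPM in them against 250 CPM in members, Krt75 586 against 114 CPM, S100a3, a calcium-binding protein of the hair cuticle, 1455 against 27.7 CPM, and Krt31 and Krt33a 234 and 302 CPM against 1 UMI each in all members. The 132 carried the 4 keratins too, at 324 CPM against 5136 CPM in members, with a UMI in 86.4% of barcodes (40.9% after thinning to 2000 UMIs), so the limit divides the cluster by level. A nearest-neighbour score called 13 members doublets, and 12 members had over 5000 CPM of mammary basal, luminal progenitor or luminal simple keratin markers, 7 of which were among those 13. Without these 12, the median log2 ratio over all listed luminal progenitor genes, members against the other barcodes, was -3.86 in place of -2.73, and that over all listed mammary basal genes was -3.87 in place of -3.30.

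The 4 keratins of the rule were uneven among the members. Krt28 was present in 228 of 231 barcodes (median 9, highest 561 UMIs) and Krt25 in 215 (median 9, highest 518). Krt27 was found in 175 (median 2, highest 292) and Krt71 in only 145 (median 3, highest 1437). Krt71 nevertheless had the most UMIs, 9352 against 4842 for Krt25, 4284 for Krt28 and 2076 for Krt27, and 10 barcodes held 48.4% of them. As CPM of the members' summed counts, Krt71 stood at 2337 (95% Poisson interval 2290 to 2385) against 11.3 in the other barcodes, Krt25 at 1210 (1176 to 1245) against 5.04, Krt28 at 1071 (1039 to 1103) against 6.62 and Krt27 at 519 (497 to 542) against 3.90. These values chose the members and serve as description only. The 4 keratins made up 0.514% of the members' UMIs. All keratins together took 0.792% in members and 1.34% in the other barcodes, where the simple and basal keratins of the mammary gland prevailed.

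In the genome the inner root sheath keratins lie side by side on each of their chromosomes. Of the other keratins that members carried, Krt5 and Krt10 lie next to these runs, and Krt35, Krt75, Krt17 and Krt14 lie further away. In GENCODE coordinates of GRCm38, the assembly of mm10, Krt25 (chr11:99315516-99322951), Krt26 (chr11:99328550-99337966), Krt27 (chr11:99345565-99351104) and Krt28 (chr11:99364872-99374903) are neighbours on the minus strand. Krt71 (chr15:101733949-101743109), Krt74 (chr15:101754259-101763504), Krt72 (chr15:101776172-101786460) and Krt73 (chr15:101793308-101802346) are neighbours on the minus strand of chromosome 15. The genes at the ends of these runs differed from them. Krt24, next to Krt25, had 0 UMIs in members, and Krt10, beyond Krt28, stood at 44.0 CPM against 22.5. Krt5, before Krt71, stood at 414 against 246 CPM, and Krt2, beyond Krt73, had 0 UMIs. The runs are not uniform either: Krt26 had 38 UMIs in 12 members, 19 of them in 1 barcode, and Krt74 had 0 UMIs in all 231 (which allows up to 0.750 CPM at a floor of 3 counts). Of the 51 keratin genes in the matrix, 19 had at least 20 UMIs in members and 15 had none.

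The promoters of 6 of these neighbours are shown because the summed levels of the genes in members differ so widely. Krt26 was searched as well but is not printed, and the promoter of Krt74 was not examined. The 80 bases before the RefSeq start are printed 5′ to 3′ on the minus strand of GRCm38.p6, at chr15:101743098-101743177 for Krt71, chr15:101802361-101802440 for Krt73, chr15:101786521-101786600 for Krt72, chr11:99322952-99323031 for Krt25, chr11:99351119-99351198 for Krt27 and chr11:99374904-99374983 for Krt28. Capitals mark the TATA box letters TATAAA.
Krt71: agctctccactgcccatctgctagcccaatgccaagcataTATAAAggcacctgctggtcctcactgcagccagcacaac
Krt73: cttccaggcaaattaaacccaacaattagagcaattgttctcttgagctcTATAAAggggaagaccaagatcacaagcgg
Krt72: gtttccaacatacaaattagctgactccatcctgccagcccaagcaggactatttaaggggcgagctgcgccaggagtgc
Krt25: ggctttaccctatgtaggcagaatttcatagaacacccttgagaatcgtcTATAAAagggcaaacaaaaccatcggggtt
Krt27: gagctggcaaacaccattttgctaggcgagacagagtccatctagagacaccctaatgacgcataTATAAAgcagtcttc
Krt28: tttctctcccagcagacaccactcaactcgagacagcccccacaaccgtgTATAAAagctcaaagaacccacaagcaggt
The letters TATAAA stood on the gene's own strand in 6 of the 7 promoters examined, these without Krt72 and with Krt26 added, beginning 15 to 40 bases before the start. In windows of the same length, 3.37% of 32851 RefSeq promoters held them on the gene's strand and 4.75% on either strand. The Krt72 window lacked these exact letters, and the similar letters tatttaa that it holds were not searched for. For Krt71, Krt72, Krt73, Krt26 and Krt27 the RefSeq start differs from the GENCODE gene end given above, so the distances of 15 to 40 bases depend on the annotation used. Of 4 other motifs searched on both strands, the GATA motif AGATAA and the AP-1 motif occurred in none of the 7, against 2.80% and 2.11% of all promoters. The LEF/TCF motif CTTTGA and the CCAAT box occurred in 1 of 7 each, against 3.79% and 15.3%. Each motif was counted on its own, also where its letters overlap another motif. A match or its absence is a description of these letters only.

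Against the other barcodes of the library, 7598 genes had a mean of at least 10 CPM over both groups. Of these, 1188 (15.6%) were at least 2-fold higher in members and 1607 (21.2%) at least 2-fold lower, by the log2 ratio of CPM with 1 added to each; the median over all tested genes was 0.03. Since members and other barcodes differ in cell type by construction, the shares give the background against which the lists below are set. The minimum applies to the mean of both groups. A gene low in 1 group therefore reaches it only through its level in the other, and such a gene is bound to be called. Beyond the keratins of the rule, Krt73 had the largest ratio (385 against 1.01 CPM, log2 ratio 7.58). The 20 genes with the largest ratios held 9 of the listed G2 and M genes, with Cdca8, Cdca3 and Cdc20 of mitosis beside them, the homeobox genes Dlx2 and Dlx3, and Krt72.

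Summed levels can rest on few barcodes, and several of the largest ratios did. Krt73 was found in 46 members and reached at least 10 UMIs in 31. Krt72 had 208 UMIs, of which 205 lay in 2 barcodes. Prr9, a proline-rich protein gene of the epidermal differentiation region, stood at 326 against 2.78 CPM with 99.5% of its UMIs in 10 barcodes. Saa3, an acute-phase gene, stood at 62.7 against 0.846 CPM and was present in 9 members. Golga7b was more evenly spread, with UMIs in 94 members and 55.2 against 0.573 CPM. Dlx2 (225 against 5.70 CPM, log2 ratio 5.08) was present in 175 members and Dlx3 (136 against 3.68 CPM, 4.87) in 176.

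**Figure D2:**
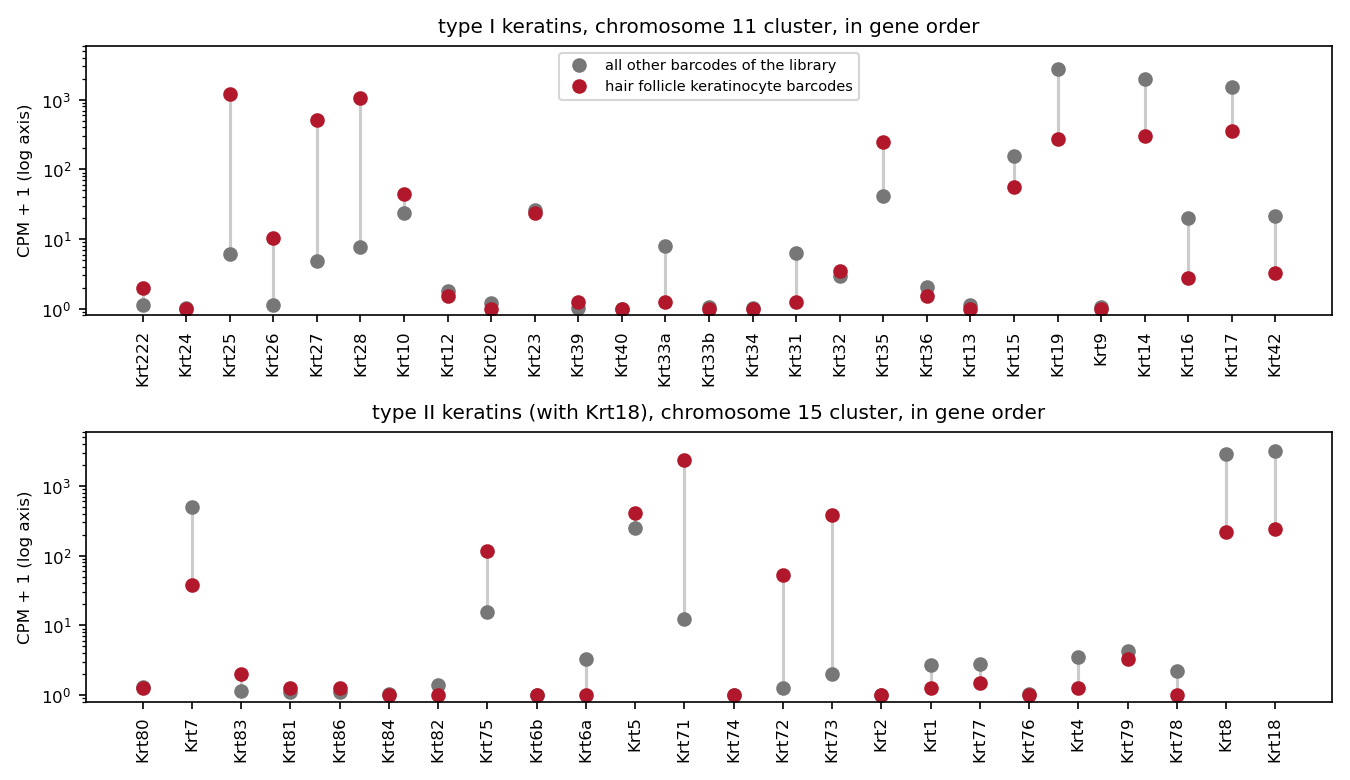
CPM + 1 (log axis) of every keratin gene in the matrix, in gene order along both keratin clusters, in the 231 members (red) and the other 9462 barcodes of the library (grey). Red points rise above grey at Krt25 to Krt28, at Krt71, Krt72 and Krt73, at Krt35 and at Krt75, and grey points lie above red at Krt7, Krt8, Krt14, Krt17, Krt18 and Krt19.

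Keratins of the neighbouring compartments were mixed. Of 6 companion layer and stress keratins, 3 reached the minimum level, with 1 higher and 2 lower (median log2 ratio -2.09). Krt75 of the companion layer was higher in members (114 against 14.6 CPM). Krt17 (353 against 1506 CPM) and Krt16 (1.75 against 19.1 CPM) were lower. Krt35 of the cortex was higher (250 against 39.9 CPM). No other of the 14 cortex and cuticle keratins measured reached the minimum level, and 5 had 0 UMIs in members. Of 14 outer root sheath and bulge genes that reached it, 9 were at least 2-fold lower and 2 higher (median log2 ratio -1.72). Krt14 stood at 298 against 1973 CPM and Krt15 at 54.7 against 154 CPM, while Krt5 stood at 414 against 246 CPM. Lhx2, a LIM homeobox factor of hair progenitors, was higher (41.0 against 2.15 CPM), and so was Trp63, the p63 factor of stratified epithelia (117 against 52.4 CPM), though not by 2-fold after thinning to 2000 UMIs. Mammary cells themselves express Krt5, Krt14 and Krt15, and against the mammary basal-like barcodes alone Trp63 did not differ by 2-fold. In the 132 barcodes of the main cluster under the limit, Lhx2 stood at 70.2 CPM and Trp63 at 121 CPM.

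Genes of the hardening machinery went in both directions, and Tchh was concentrated in few members. Tchh reached 165 against 10.1 CPM, with 96.2% of its 662 UMIs in 10 members and UMIs in 27. Without the 10 members that held most UMIs of the 4 keratins, it no longer differed by 2-fold. Tgm3 (28.7 against 1.98 CPM) was spread over 64 members and Padi3 (37.5 against 3.11 CPM) over 43. Ctsl, which encodes cathepsin L, was lower (138 against 1180 CPM). Of the 16 genes of this list, 7 reached the minimum level, with 3 higher and 2 lower, against 15.6% and 21.2% over all genes. The median log2 ratio was -0.41 over those 7 and -0.12 over all 16. Summed, the list stood at 479 CPM in members and 1341 CPM in the others. Without the 10 members with most keratin UMIs, 6 reached the minimum level, with 1 higher and 2 lower. The 132 barcodes of the main cluster under the limit carried more of these genes than members did. Tchh stood at 220 CPM in them, and Tgm3 and Padi3 at 79.8 CPM each.

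Transcription factors of the hair lineage were higher in the larger part, and some of them were spread over many members. Of 23 listed, 18 reached the minimum level, 11 of them higher and 4 lower, against 15.6% and 21.2% over all genes. The median log2 ratio was 2.47 over those 18 and 2.29 over all 23 (0.03 over all tested genes). Some, such as Lef1, Hoxc13, Dlx3 and Dlx4, were low in the other barcodes and reached the minimum level through members. Cux1, a homeobox factor whose gene is active in the inner root sheath, was found in 228 members at 407 against 40.2 CPM. Msx2 was found in 200 (314 against 40.6 CPM), Ovol1 in 154 (126 against 19.3 CPM), Grhl1 in 131 (71.5 against 13.8 CPM) and Msx1 in 125 (168 against 10.6 CPM). Lef1, the nuclear partner of β-catenin, stood at 85.7 against 2.81 CPM, Hoxc13, a regulator of hair keratin genes, at 59.2 against 3.40 CPM, and Dlx4 and Foxq1 were higher as well (29.2 against 1.56 and 45.7 against 13.9 CPM). Lef1, Hoxc13 and Foxq1 were each found in the smaller part of the members. Gata3, a factor required for inner root sheath specification, stood at 311 against 274 CPM, and mammary luminal cells are also known for it. Runx1, Klf4, Trps1 and Barx2 were lower. Many of the higher levels were not particular to members, since the 132 barcodes of the main cluster under the limit had them too. Msx2 stood at 379 CPM in those 132, Ovol1 at 186, Grhl1 at 95.2, Lef1 at 92.3, Hoxc13 at 118 and Foxq1 at 159 CPM, all above members. Cux1 (346 CPM), Msx1 (150 CPM) and Gata3 (111 CPM) stood below members there.

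Signal genes were higher in part. Of 25 genes of Wnt, Hedgehog, BMP and Eda signals, 13 reached the minimum level, 6 were higher and 0 lower (median log2 ratio 0.32 over those 13 and 1.40 over all 25). The BMP targets Id1, Id2 and Id3 stood at 459, 245 and 933 CPM against 42.1, 92.4 and 321 CPM, and Bmp4 at 34.7 against 3.44 CPM. Ptch1, the Hedgehog receptor and target, stood at 20.2 against 3.77 CPM, and Wnt4 at 87.5 against 32.0 CPM. Shh itself had 22 UMIs in 8 members, 19 of these in barcodes without Krt71. In the Notch list 9 of 14 genes reached the minimum level, with 2 higher and 2 lower (median log2 ratio -0.21 over those 9), near the shares of 15.6% and 21.2% over all genes. The higher were the receptor gene Notch1 (92.2 against 25.8 CPM) and its feedback target Nrarp (105 against 11.8 CPM), and Hes1 stood at 321 against 214 CPM. In the 132 barcodes of the main cluster under the limit, Id1 stood at 534, Id3 at 964, Bmp4 at 23.8 and Ptch1 at 19.0 CPM. Notch1 stood at 85.1, Nrarp at 86.9 and Hes1 at 249 CPM there.

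Junction genes were higher in part. Of 21 desmosome and adhesion genes, 15 reached the minimum level, 8 of them higher and 1 lower. The median log2 ratio was 1.10 over those 15 and 1.16 over all 21. Perp, a desmosomal membrane protein, was found in every member and stood at 1854 against 295 CPM. Gjb2, which encodes the gap junction protein connexin 26, stood at 593 against 39.3 CPM with UMIs in 222 members, Dsc3 at 82.7 against 4.42 CPM and Dsg1a at 33.5 against 0.742 CPM. Jup, encoding plakoglobin, did not differ by 2-fold (156 against 153 CPM), nor did Cdh1, encoding E-cadherin (43.2 against 77.9 CPM). In the 132 barcodes of the main cluster under the limit, Gjb2 stood at 957, Perp at 1496, Dsc3 at 78.6 and Dsg1a at 23.2 CPM. Of 16 epidermal differentiation genes, 6 reached the minimum level, with 2 higher and 1 lower. The median log2 ratio was 0.77 over those 6 and 0 over all 16. Dmkn (287 against 27.8 CPM) and Calml3 (35.2 against 5.65 CPM) were higher, Krt10 stood at 44.0 against 22.5 CPM with UMIs in 126 members, and Krt1 had 1 UMI and Krt2, Flg and Flg2 had none in members.

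Genes of the cell cycle were higher almost throughout. All 20 listed genes of G2 and M phase were higher (median log2 ratio 4.69), as were 16 of the 17 S phase genes that reached the minimum level. The S phase median was 2.99 over those 17 and 2.88 over all 18. Ube2c, which drives the exit from mitosis, stood at 482 against 7.91 CPM, Top2a at 243 against 6.96 CPM and Mki67 at 103 against 3.25 CPM. In S phase, Rrm2 of nucleotide synthesis stood at 213 against 9.10 CPM and the helicase subunit gene Mcm5 at 137 against 6.84 CPM, and Slbp was the exception (151 against 97.6 CPM). After thinning to 4000 UMIs, 129 of the 231 members (55.8%) had at least 3 UMIs of the G2 and M genes, against 37.6% of the deep enough other barcodes of the main cluster and 0.257% of the mammary basal-like ones. Unthinned, the shares were 69.3%, 53.0% and 0.631%. Phase itself was not called.

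**Figure D3:**
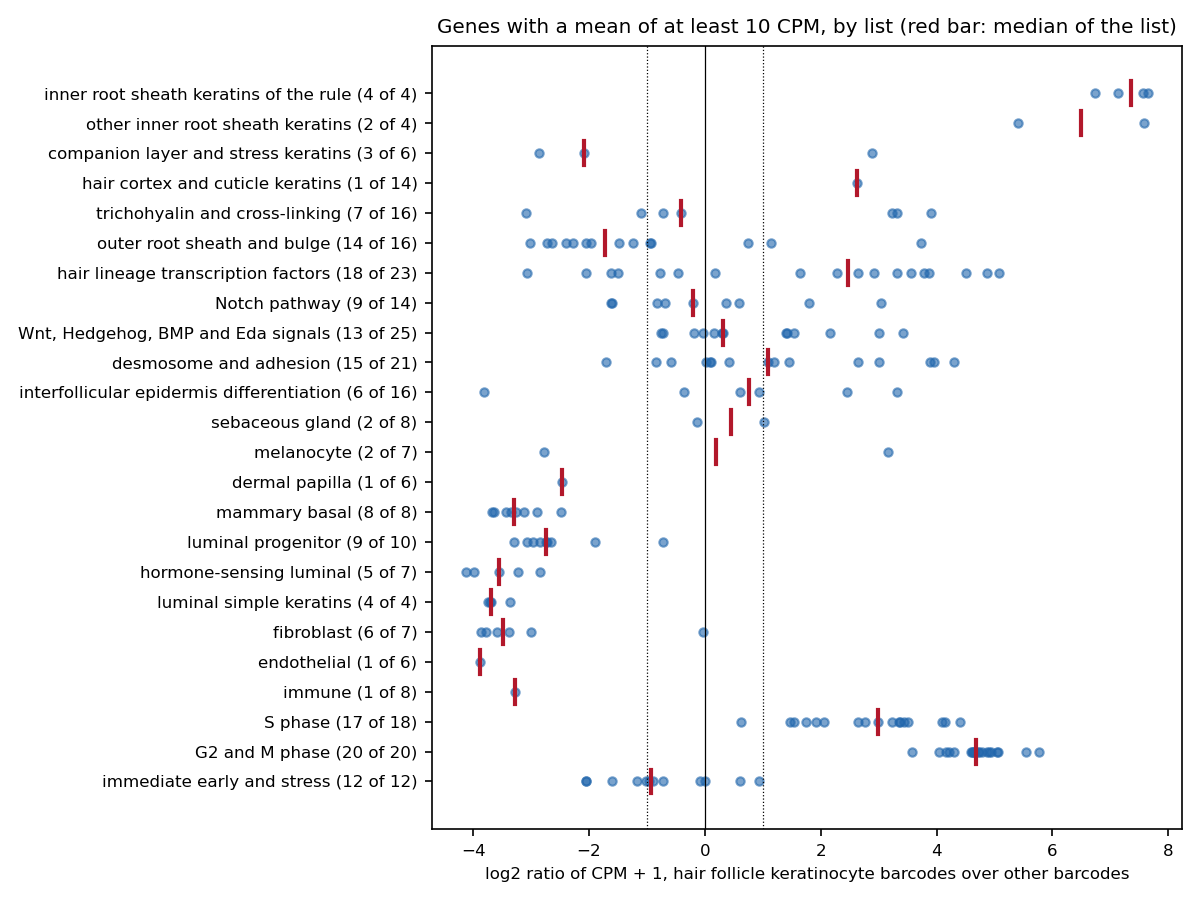
Log2 ratio of CPM + 1, members over the other barcodes of the library, for each listed gene with a mean of at least 10 CPM (points) and the median of each list (red bar); dotted lines mark 2-fold and the labels give how many of the measured genes are shown. All 20 genes of G2 and M phase lie to the right of the 2-fold line, and all 8 mammary basal genes lie to the left.

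Markers of the other cell types of the gland were low in members. All 8 mammary basal genes were lower (median log2 ratio -3.30), among them Acta2, smooth muscle actin, at 251 against 2407 CPM. Of 9 luminal progenitor genes 8 were lower (-2.74; Csn3 66.0 against 657 CPM), and all 5 hormone-sensing luminal genes measured were lower (-3.55; Prlr 25.5 against 460 CPM). The simple keratins Krt7, Krt8, Krt18 and Krt19 stood at 37.0, 221, 240 and 270 CPM against 505, 2865, 3137 and 2798 CPM. Summed over its list, the mammary basal level per member had a median of 135 CPM (0 to 7596), and the luminal progenitor level 289 CPM (0 to 24051). Of the 8 immune markers, Ptprc, Cd3e, Cd3d, Csf1r and S100a9 were at 0 UMIs, and of 6 dermal papilla markers 4 were at 0. Against mammary basal-like barcodes alone, which carry little luminal RNA, the luminal progenitor list had a median of 1.08 instead, so the direction of luminal genes depends on the barcodes compared with.

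The fibroblast list was the exception in 1 gene. Of its 6 measured genes 5 were lower, but Dcn, which encodes the proteoglycan decorin, stood at 813 CPM in members and 835 CPM in the others and was present in 180 members. In 72 members Dcn reached at least 10 UMIs, and these held 2965 Dcn UMIs but only 52 of Col1a1, that is 2061 and 36.2 CPM. In the fibroblast-like clusters Dcn stood at 11754 CPM and Col1a1 at 3890 CPM. The other fibroblast genes were also higher in the 72 than in the 159 members with 0 to 9 Dcn UMIs. Col1a1 stood at 36.2 against 3.90 CPM there and Col3a1 at 96.6 against 14.8 CPM. Over the whole list, 3 members had over 5000 CPM. Without doublets and low-quality barcodes, the median log2 ratio over all listed genes was -4.65 in place of -3.39. Of the 72 barcodes, 46 had no Krt71 UMI, and none lay outside the main cluster. A similar single gene was Dct, dopachrome tautomerase of melanin synthesis, with 112 UMIs over 57 members and at most 5 in each. The other melanocyte genes Tyr and Tyrp1 were at 0, Pmel and Mlana at 1 UMI each, and Sox10 was lower (8.50 against 64.1 CPM).

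Within the members, cell cycle genes were lower in barcodes with at least 10 Krt71 UMIs than in those with fewer, and the groups with none and with 1 to 9 did not follow this order. Members were divided by their Krt71 UMIs into 86 barcodes with none, 52 with 1 to 9, 46 with 10 to 49 and 47 with at least 50, at median depths of 18521.5, 16497.5, 13686.5 and 15478 UMIs. A member without Krt71 had to reach the limit on the other keratins of the rule, and the groups are parts of 1 library, so their order is a description. G2 and M genes took a median of 16.4, 17.5, 2.34 and 0.774 UMIs per 10000 in the same order. After thinning to 4000 UMIs, 65.1%, 73.1%, 41.3% and 34.0% of barcodes had at least 3 such UMIs. The S phase median was 20.9, 27.6, 5.13 and 3.14 per 10000. Barcodes with high Krt71 were not uniformly quiet, and their upper quartile still was 24.96 per 10000 at 50 UMIs or more, against 43.8 without Krt71. Only at the top was this different: the 10 barcodes with at least 200 Krt71 UMIs had at most 0.774 G2 and M UMIs per 10000, and 5 of them had 0. The limit of 200 was chosen after the values were seen.

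**Figure D4:**
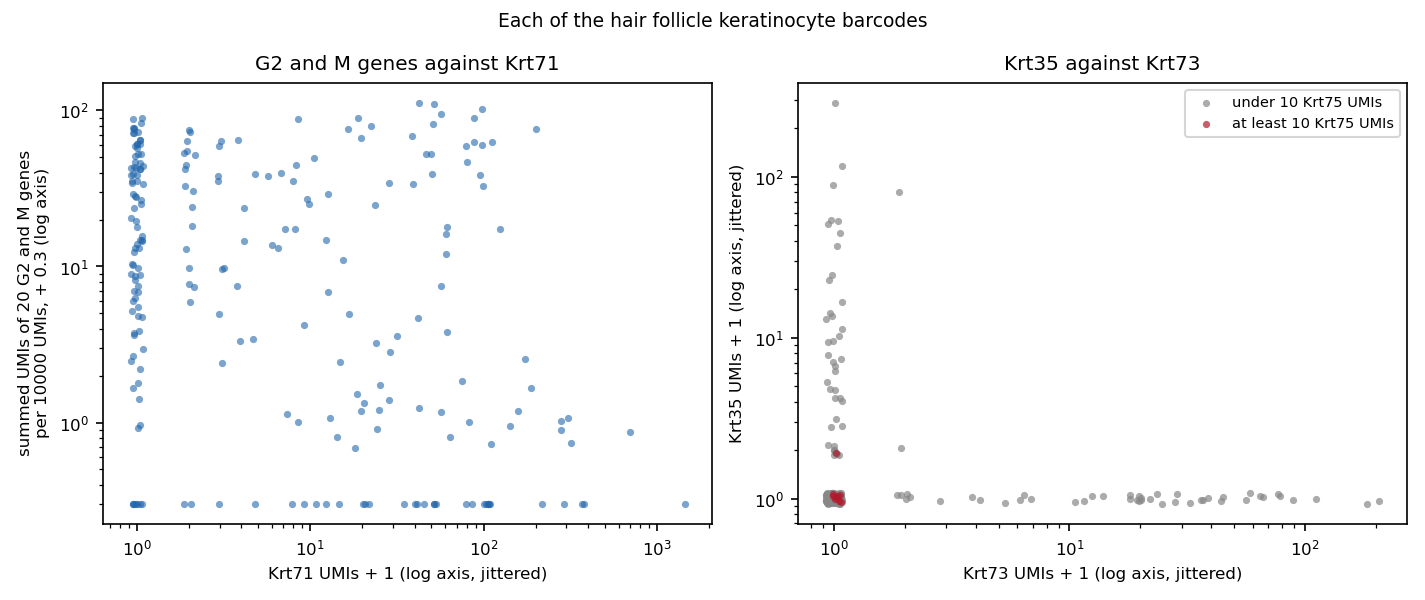
Each point is 1 of the 231 members. Left, UMIs of the 20 G2 and M genes per 10000 against Krt71 UMIs, both on log axes, with 0.774 as the highest value among barcodes with at least 200 Krt71 UMIs. Right, Krt35 against Krt73 UMIs, where no barcode reached 10 of both and the 9 barcodes with at least 10 Krt75 UMIs (red) lie near the origin.

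Transcription factors differed between these groups in either direction. Msx1 stood at 262, 205, 51.4 and 19.2 CPM from no Krt71 to at least 50 UMIs, Hoxc13 at 97.4, 61.5, 14.0 and 11.5 CPM, Lef1 at 131, 92.8, 21.8 and 32.0 CPM, and Msx2 at 444, 291, 192 and 163 CPM. Gata3 went the other way, at 203, 267, 508 and 433 CPM, as did Cux1 (300, 414, 529 and 531 CPM) and Grhl1, a grainyhead factor of desmosomal gene control (38.0, 54.8, 134 and 111 CPM). Dlx3 lay between 111 and 158 CPM and Ovol1 between 108 and 135 CPM. Junction genes were higher with more Krt71: Perp at 1003, 1472, 3010 and 3174 CPM, Gjb2 at 333, 460, 941 and 1020 CPM, and Dsp, which encodes desmoplakin, at 88.5, 111, 207 and 270 CPM. Dsc1, a desmocollin of differentiating cells, had 2, 4, 24 and 25 UMIs. Dmkn stood at 6.53, 32.4, 352 and 1127 CPM. Krt5 stood at 554, 453, 382 and 94.7 CPM, Dcn at 1183, 1199, 178 and 93.4 CPM, and Dct at 43.9, 34.7, 9.34 and 1.28 CPM.

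**Figure D5:**
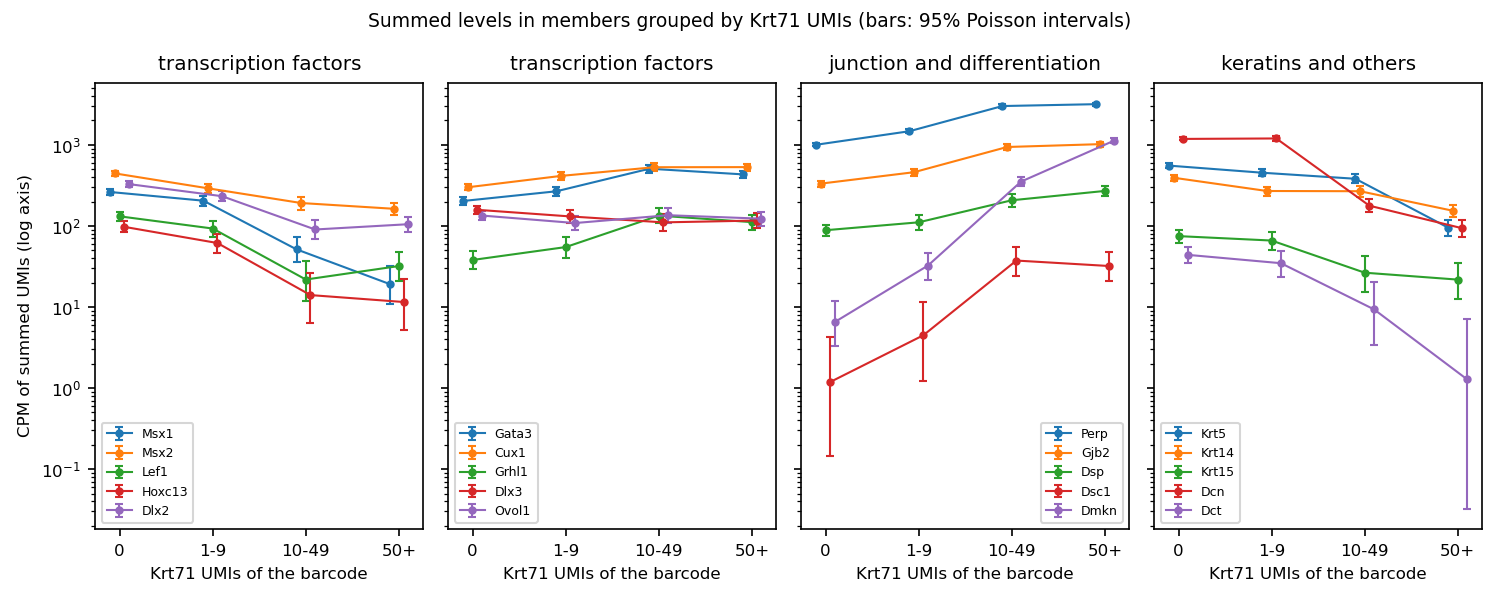
CPM (log axis) of summed UMIs in members grouped by their Krt71 UMIs (none, 1 to 9, 10 to 49, at least 50), with 95% Poisson intervals that cover counting error only. Msx1 lies at 262 CPM without Krt71 and at 19.2 CPM with at least 50 UMIs, whereas Perp lies at 1003 and 3174 CPM.

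Keratins outside the rule marked different members. Krt73 reached at least 10 UMIs in 31 barcodes, Krt35 in 17 and Krt75 in 9, and no barcode was in more than 1 of these sets. At a limit of 3 UMIs the sets held 38, 30 and 30 barcodes, with 1 shared by Krt73 and Krt75, 1 by Krt75 and Krt35 and 0 by Krt73 and Krt35. The other 174 members had under 10 UMIs of each. These sets were formed after the values were seen.

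The 31 barcodes with Krt73 were richest in the inner root sheath keratins, with Krt71 at 6757, Krt28 at 4601, Krt25 at 3982 and Krt27 at 2562 CPM. Prr9 stood at 2558 CPM in them, or 1314 without its highest barcode, and at 0.994 CPM in the 174 others. Tchh stood at 943 CPM, or 447 without its highest barcode, and 7 of the 8 members with at least 10 Tchh UMIs belonged to this set. Gata3 (715 CPM), Golga7b (215 CPM) and Dsc1 (72.9 CPM) were higher here than in the other sets, and Lhx2 was low (7.88 CPM). Only 4 of the 31 had no Krt71, and G2 and M genes had a median of 0.443 per 10000. Krt72 lay almost wholly in 2 of these barcodes, which had 0 Krt71 UMIs but 656 Krt28, 266 Krt73, 217 Krt27 and 765 Prr9 UMIs.

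The 9 barcodes with Krt75 had little Krt25, Krt27 or Krt28 (48.0, 40.0 and 200 CPM) and no Krt73 UMI. They reached the limit of the rule mostly through Krt71 (1345 CPM), so its presence in them is no finding. In the 132 barcodes of the main cluster under the limit, Krt75 stood at 586 CPM and Krt71 at 39.3 CPM. In the 9 barcodes with Krt75, Krt17 stood at 1922 CPM against 333 CPM in the 174 other members. Gjb2 stood at 2314 against 477 CPM and Fgf5, a growth factor that ends hair growth, at 104 against 17.2 CPM. Msx1 and Lef1 had 0 UMIs in the set, and the whole set held only 124894 UMIs.

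The 17 barcodes with Krt35 carried the factors of the hair matrix and cortex. Hoxc13 stood at 248 CPM against 44.7 CPM in the 174 others, Lef1 at 234 against 76.9 CPM, Msx2 at 582 against 304 CPM and Mt4, a metallothionein of stratified epithelia, at 577 against 62.3 CPM. Gata3 was low (34.2 against 277 CPM). The set had a median of 34.95 G2 and M UMIs per 10000, and 10 of the 17 had no Krt71. Its Krt71 level of 4164 CPM came from the single barcode with most keratin UMIs in the library (1437 Krt71, 277 Krt35 and 152 Tchh UMIs at 38226 UMIs in all), and without it the set stood at 70.5 CPM.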

How the data were processed

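The series holds droplet single-cell libraries (10x Chromium 3′ v2) of sorted mammary gland cells. The authors deposited unnormalised UMI counts for 27998 genes in 36884 barcodes, aggregated over 4 libraries. Reads were processed with Cell Ranger 2.1.0 and build mm10, per the submitters' processing notes. No source used here says whether libraries were brought to equal depth. The barcode suffix gave the library.

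The members and gene lists were chosen with earlier results of these data known. Counts were summed over barcodes and scaled to CPM, with exact Poisson intervals. Shares have exact (Clopper-Pearson) binomial intervals, and a count of 0 was read against a floor of 3 counts. A gene was tested for size at a mean of at least 10 CPM and called at 2-fold on the log2 scale with a pseudocount of 1 CPM. No test was made, since each group has 1 library. No barcode was filtered out. For context the library was clustered (Leiden, resolution 1, 15 neighbours, 30 components of 2000 variable genes; leidenalg 0.10.2, scikit-learn 1.9.0), and doublets were scored against simulated ones, taking the top 8% of scores as the call, so the rate is assumed. Clusters were named from listed markers. The 25 lists are those in the plot of log2 ratios by list, and pericyte markers, none of which reached 10 CPM. Named genes were every keratin with at least 20 UMIs in members, the 20 highest and 10 lowest ratios, and from each list the 4 highest members and those past 2-fold. Genes given for sets within the members were chosen after their values were seen. The comparison was tested on simulated data. TMM factors came from edgeR 4.0.16, used for scaling only.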

Additional observations from a re-analysis of the deposited data

How the results depend on the processing

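The number of members followed the limit, with 296, 149 and 81 barcodes at minimums of 5, 20 and 50 UMIs, 67 at 10 UMIs after thinning each barcode to 2000 UMIs, and 181 with either Krt25 or Krt28 left out of the sum. Leaving out Krt71, Krt27, called doublets or barcodes outside the limits of 500 genes and 10% mitochondrial UMIs gave 206, 214, 218 and 230. The share of the members' UMIs from the 4 keratins, 0.514%, became 0.433% and 0.744% at minimums of 5 and 20, 0.546% without doublets and low-quality barcodes, and, in settings chosen after seeing the data, 0.326% without the 10 members with most keratin UMIs and 0.532% without the 12 with mammary markers. Genes at least 2-fold higher numbered 391 and genes lower 493 at a mean of at least 50 CPM, where fewer genes are tested, and 3315 were lower at a mean of at least 1 CPM. Under the other settings run the counts stayed within 1.5 times, from 974 to 1782 higher and from 1418 to 1791 lower. The genes themselves changed more than their number. Against mammary basal-like barcodes, 1061 of 1662 higher and 1115 of 1524 lower genes were also called in the main comparison. After thinning to 2000 UMIs these were 999 of 1424 and 1408 of 1791.

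Against mammary basal-like barcodes alone, 61 of the 77 genes past 2-fold that were followed stayed past it in either direction. There the lower levels turned into higher ones for Krt7 (log2 ratio 0.15), Krt19 (0.39), Col1a1 (0.87), Col3a1 (1.11), Csn3 (0.35), Prlr (0.66) and Areg (0.37), and in the median of the luminal progenitor (1.08), hormone-sensing luminal (0.21) and fibroblast (0.57) lists; by construction this setting removes the luminal and stromal barcodes from the comparison. None of the 77 turned its direction under the other settings run. Without the 10 members with most keratin UMIs Tchh had a log2 ratio of 0.15 and Pkp3 of 0.98, and the ratio of Krt72 went from 5.41 to 2.45. Trp63 stood at 0.54 and Dsp at 0.92 after thinning. Fos was no longer past 2-fold at member minimums of 5 and 20, Trp63 and Scd1 at a minimum of 20, Scd1 at a pseudocount of 5 CPM and Trp63 with the mean CPM of single barcodes. No paired analysis was possible because members were compared with other barcodes of the same library and no test was made. Depth limits genes at 0 in members to an upper level of 0.750 CPM at a floor of 3 counts.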
